A study of Mus musculus with 9 samples.

Results

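Expression was followed for 52 genes of the mouse lysosome, out of 22060 genes listed for macrophages and 21936 listed for tumor cells. The genes were chosen by symbol in the tumor cell table and by the same gene identifiers in the macrophage table. They are 11 proteases (the cathepsins, Lgmn and Tpp1), 13 glycosidases and sulfatases, 7 lipid hydrolases and their activators, 7 membrane proteins, 11 subunits of the vacuolar proton pump (V-ATPase) and the 3 transcription factors Tfeb, Tfe3 and Mitf. RNA sequencing covered 9 libraries of C57BL origin, with 1 library per group and therefore no replicates. The macrophages were bone-marrow-derived macrophages (BMDM) of 2 kinds, which the labels call GM-BMDM and M-BMDM. Each kind was sequenced after 4 h of tunicamycin and untreated. Tunicamycin blocks N-linked glycosylation and thereby stresses the endoplasmic reticulum. The tumor cells were Lewis lung carcinoma (LLC) cells, an established mouse lung carcinoma line. They were grown for 24 h in medium that GM-BMDM or M-BMDM had conditioned for 16 h, and the macrophages had before that been given tunicamycin for 12 h and washed ("stressed" medium) or had been given none ("unstressed" medium). The remaining LLC library came from untreated cells, and how those cells were fed is not given in the sources used here. The series' title places the comparison in the passing of stress between macrophages and tumor cells.

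Lysosomes degrade proteins, glycans and lipids with hydrolases that work at acid pH, and the V-ATPase supplies the acidity by pumping protons across the lysosomal membrane. Most of the soluble enzymes are themselves N-glycosylated and reach the lysosome through mannose 6-phosphate receptors. TFEB, TFE3 and MITF bind E-boxes near the start sites of many of these genes and raise their transcription when nutrient signalling at the lysosome drops or the organelle is damaged. Macrophages are known for large, active lysosomes, in which they break down what they have engulfed.

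The sequence that TFEB and its relatives bind contains the palindrome CACGTG. RefSeq promoter windows (assembly GRCm38.p6) that run from 250 bases before to 50 bases after a start site were found for 44 of the 52 genes, and 8 had none. CACGTG, which reads the same on both strands, was in a window of 13 of these 44 genes (29.5%), against 2187 of 27025 genes with a window in the whole table (8.09%). TCACGTG, which contains it and was sought on both strands, was in 12 of the 44 (27.3%), against 4.29% of all genes. A match describes the letters in the window and is not a binding site. Whether a gene with or without a match is a target of these factors was not tested. The 13 genes were Ctsa, Ctsd, Ctsl, Lgmn, Gaa, Gla, Glb1, Naglu, Arsa, Lamp1, Mcoln1, Atp6v0d1 and Atp6v1a. Lamp1 held 4 copies, whose first bases lay 61, 45, 28 and 15 bases before the start site, and Ctsa, Ctsd, Gla and Mcoln1 held 2 each.

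The 250 bases before the start site are shown for 5 genes named in the LLC results, with each CACGTG in capitals. Lamp1 (chr8:13158911-13159160, plus strand) codes for an abundant glycoprotein of the lysosomal membrane and Lgmn (chr12:102439093-102439342, minus strand) for an asparaginyl protease, and both windows hold the motif. Neu1 (chr17:34931003-34931252, plus strand), Hexa (chr9:59539290-59539539, plus strand) and Atp6v0a1 (chr11:101010148-101010397, plus strand) were the genes furthest below untreated LLC cells among those at a well-measured level, and their windows do not hold these letters. No exon of the GENCODE M21 annotation lies in these 5 stretches. Those of Lgmn and Atp6v0a1 lie inside the annotated gene, between exons, since RefSeq places a start site there.
Lamp1: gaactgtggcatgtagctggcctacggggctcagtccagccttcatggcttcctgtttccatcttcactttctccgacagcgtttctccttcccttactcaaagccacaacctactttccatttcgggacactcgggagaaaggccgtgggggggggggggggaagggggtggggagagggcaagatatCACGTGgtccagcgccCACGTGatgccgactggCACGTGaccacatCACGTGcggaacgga
Lgmn: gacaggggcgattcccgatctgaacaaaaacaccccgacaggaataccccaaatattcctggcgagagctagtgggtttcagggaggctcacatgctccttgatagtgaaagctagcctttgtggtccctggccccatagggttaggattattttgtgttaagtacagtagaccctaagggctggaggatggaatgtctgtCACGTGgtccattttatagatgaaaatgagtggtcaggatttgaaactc
Neu1: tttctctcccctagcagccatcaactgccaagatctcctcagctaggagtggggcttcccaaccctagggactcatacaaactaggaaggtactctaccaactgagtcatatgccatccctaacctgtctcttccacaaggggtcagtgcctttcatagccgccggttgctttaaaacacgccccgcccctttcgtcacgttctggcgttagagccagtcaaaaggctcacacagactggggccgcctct
Hexa: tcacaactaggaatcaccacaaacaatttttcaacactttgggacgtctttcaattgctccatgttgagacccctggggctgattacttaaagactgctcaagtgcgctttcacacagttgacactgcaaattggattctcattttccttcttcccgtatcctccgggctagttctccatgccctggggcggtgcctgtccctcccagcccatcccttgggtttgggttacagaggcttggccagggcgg
Atp6v0a1: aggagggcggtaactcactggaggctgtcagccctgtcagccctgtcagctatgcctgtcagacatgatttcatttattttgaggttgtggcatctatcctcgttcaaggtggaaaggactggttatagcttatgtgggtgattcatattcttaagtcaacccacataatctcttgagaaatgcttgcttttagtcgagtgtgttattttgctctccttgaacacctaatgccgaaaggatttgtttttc

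Library totals were 37695079 to 42751176 counts in BMDM and 15020068 to 17128471 in LLC. Levels are given as CPM, counts scaled to a common library size after correction for composition within each table, and a difference between 2 libraries was called 2-fold from a log2(CPM + 1) difference of 1. Intervals on folds are exact Clopper-Pearson intervals at 95% that cover counting error only. Adjusted p-values come from edgeR's quasi-likelihood test on all 4 BMDM or all 5 LLC libraries, with Benjamini-Hochberg adjustment over all genes tested. The fits leave 1 residual degree of freedom per gene. The rest of their precision comes from a spread pooled over all genes, with 5.77 prior degrees of freedom in BMDM and infinite ones in LLC, where the pooled spread is taken as known. The residual degree of freedom is the difference between the 2 kinds' responses to tunicamycin in BMDM. In LLC it is the difference between the 2 kinds of medium in the effect of stress, and the untreated library adds nothing to it. A response that differs between the kinds thus counts as error. The p-values therefore measure departure from additive effects between single libraries. They hold no spread between replicates and say nothing about other cultures. A gene is said to have risen or fallen where the adjusted p was under 0.05. The 14 macrophage markers were all at 1 CPM or more in each BMDM library. In LLC 6 to 9 of the 14 had no count, and the list summed to 15 to 23.3 CPM. Neutrophil markers summed to 1622 and 1699 CPM in GM-BMDM with and without tunicamycin, against 43.2 and 64.5 CPM in M-BMDM with and without it. Markers of mast cells, basophils and eosinophils summed to 109 and 141 CPM in those GM-BMDM, against 1.49 and 1.69 CPM in those M-BMDM. Of the 9 mesenchymal and the 8 epithelial markers 1 gene each passed the minimum level in BMDM, and both rose. The sums of these lists in GM-BMDM therefore rest mainly on 1 gene each. The mesenchymal list summed to 1562 and 1744 CPM in those GM-BMDM, against 421 and 502 CPM in those M-BMDM, and the epithelial list to 32.3 and 74.1 CPM, against 0.237 and 0.134 CPM. Of the 14 macrophage markers 4 rose and 7 fell in GM-BMDM, where 25.4% of all genes tested rose and 25% fell. Whether cells of these other types were present was not tested, nor was their part in the differences between the kinds. In these bulk libraries fewer cells of a type and less RNA per cell cannot be told apart.

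The 52 genes made up a large part of the macrophage transcriptome. They took 7.89% and 7.75% of all counts in GM-BMDM with and without tunicamycin and 6.36% and 6.94% in M-BMDM with and without it. In LLC they took 0.774% and 0.75% with stressed and unstressed GM medium, 0.846% and 0.907% with stressed and unstressed M medium, and 1.06% in untreated cells. Per length, as FPKM deposited by the authors, Psap led in all 9 libraries. Psap codes for prosaposin, the precursor of the saposins that present sphingolipids to their hydrolases. Without tunicamycin its FPKM was 6149 in GM-BMDM, at rank 5 of all genes, and 5786 in M-BMDM, at rank 3. In untreated LLC cells it was 385, at rank 64. The protease of antigen processing Ctss came next in macrophages, at 5135 FPKM in GM-BMDM and 3105 FPKM in M-BMDM without tunicamycin, and had no count in any LLC library.

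Ctsd, the main aspartic protease of lysosomes, followed in GM-BMDM without tunicamycin at 3382 FPKM, and had 1870 FPKM in M-BMDM without it. Gpnmb, a membrane glycoprotein of lysosomes and melanosomes that macrophages raise under lysosomal stress, came after it in GM-BMDM at 1768 FPKM. In untreated LLC cells Lamp1 (359 FPKM), the progranulin gene Grn (267 FPKM), the tetraspanin gene Cd63 (146 FPKM) and Ctsl (130.0 FPKM) followed Psap. The lowest of the 52 in all 4 macrophage libraries was Arsb, a sulfatase of dermatan sulfate, at 1.71 and 2.07 FPKM in GM-BMDM with and without tunicamycin and 0.774 and 0.993 FPKM in M-BMDM with and without it.

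All 52 genes passed the minimum mean of 1 CPM in BMDM and 45 passed it in LLC. The 7 that did not are Ctsc, Ctsh, Ctsk, Ctss, Arsb, Gm2a and Atp6v0d2, among them genes known for strong expression in macrophages or osteoclasts. Ctss and Atp6v0d2 had 0 counts in all 5 LLC libraries, and a count of 0 allows up to 3 counts in a library. Ctsh, the highest of the others, had 21 and 6 counts with stressed and unstressed GM medium, 9 and 11 counts with stressed and unstressed M medium, and 11 counts in untreated cells. Gm2a had 6 counts with stressed GM medium, 3 counts with stressed M medium and 0 in the other LLC libraries. Ctsc, Ctsk and Arsb had at most 8 counts in any LLC library.

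**Figure D1:**
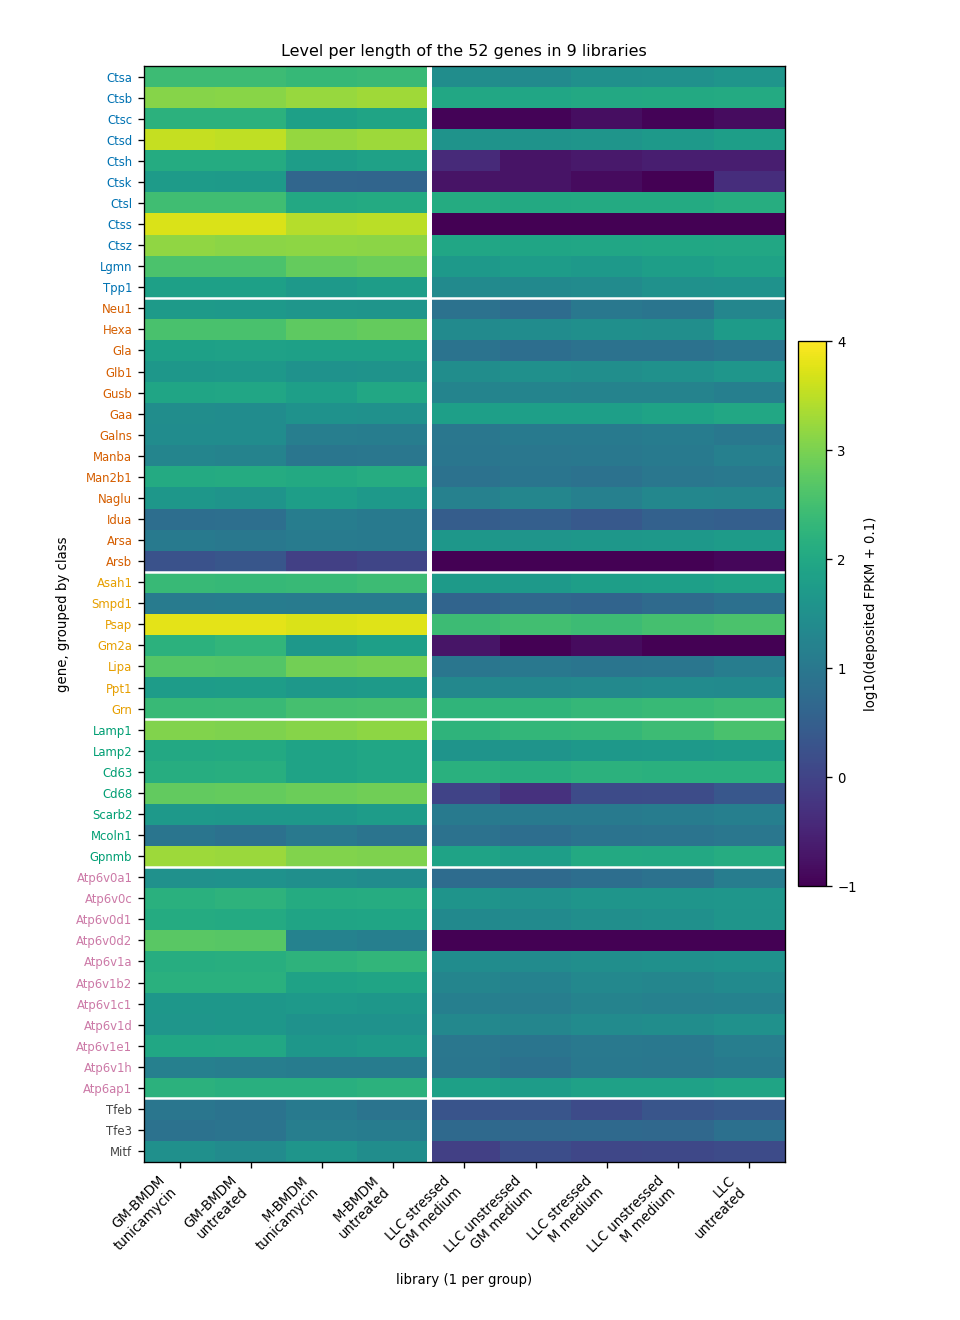
Deposited FPKM of each gene, as log10(FPKM + 0.1), in the 4 BMDM and 5 LLC libraries, with genes grouped by class and the classes set apart by white lines. Psap is the brightest row in all 9 libraries, and Ctss and Atp6v0d2 are at the bottom of the scale in LLC, where they had 0 counts.

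GM-BMDM held more mRNA of most cathepsins and of 1 pump subunit in particular than M-BMDM, and less of a smaller group led by Lipa, Idua, Lgmn and Hexa. The fit with kind and tunicamycin as terms put 22 of the 52 genes higher and 7 lower in GM-BMDM, where 25.4% of all 11049 genes tested rose and 25% fell. Of the 52 genes, 30 were higher in both GM-BMDM libraries than in either M-BMDM library and 11 were lower in both, against 36.3% and 40% of all genes. The median log2 fold change was 0.26, beside -0.04 over all genes. By class, 7 of 11 proteases rose and 1 fell, 5 of 13 glycosidases and sulfatases rose and 3 fell, and 2 of 7 lipid genes rose and 2 fell. Among the rest, 2 of 7 membrane proteins and 6 of 11 pump subunits rose with none falling, and 1 of the 3 transcription factors fell.

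The difference was widest for Atp6v0d2 (chr4:19876841-19922605, minus strand), the d2 form of the pump's membrane-embedded sector, known from osteoclasts and some macrophages. It had 1413 and 1447 CPM in GM-BMDM with and without tunicamycin, against 42.0 and 38.4 CPM in M-BMDM with and without it. Both GM-BMDM libraries stood far above both M-BMDM libraries. The ratio was 33.7-fold (95% interval 32.1 to 35.3) with tunicamycin and 37.7-fold (35.7 to 39.7) without, and the fitted log2 fold change was 5.15 ± 0.15 (SE, edgeR adjusted p = 2.4e-06). The ubiquitous form Atp6v0d1 differed far less, with 210.5 and 217 CPM in GM-BMDM with and without tunicamycin, against 141 and 155 CPM in M-BMDM with and without it (log2 fold change 0.53 ± 0.11). Atp6v1e1 and Atp6v1b2, stalk and nucleotide-binding subunits of the cytosolic sector, rose by 1.06 ± 0.12 and 0.99 ± 0.12. Atp6v0c, Atp6v1d and Atp6v0d1 also rose. Atp6v1a, the catalytic subunit, was at -0.36 ± 0.13 and did not pass (edgeR adjusted p = 0.058), and its level was 813 and 852 CPM in GM-BMDM with and without tunicamycin, against 958 and 1189 CPM in M-BMDM with and without it. Summed over the 11 subunits, the pump took 5450 and 5688 CPM in GM-BMDM with and without tunicamycin, against 3216 and 3680 CPM in M-BMDM with and without it.

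Ctsk, the collagen-degrading cathepsin of osteoclasts, showed the next widest difference. It had 83.6 and 83.1 CPM in GM-BMDM with and without tunicamycin, against 6.19 and 6.52 CPM in M-BMDM with and without it. That is 13.5-fold (11.9 to 15.4) with tunicamycin and 12.7-fold (11.2 to 14.6) without, with a fitted value of 3.71 ± 0.13 (edgeR adjusted p = 3.3e-06). Ctsl, an endopeptidase of broad action, had 1880 and 1965 CPM in GM-BMDM with and without tunicamycin, against 629.8 and 735 CPM in M-BMDM with and without it (1.5 ± 0.13). Ctsc, which activates granule serine proteases, had 937 and 989.9 CPM in GM-BMDM with and without tunicamycin, against 374 and 478 CPM in M-BMDM with and without it (1.19 ± 0.13). In all 3 genes both GM-BMDM libraries stood above both M-BMDM libraries. Ctsd, Ctsh, Ctss and Tpp1, the last a tripeptidyl peptidase, rose by 1.07, 0.91, 0.89 and 0.40.

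Lgmn went the other way among the proteases. It had 907 and 944 CPM in GM-BMDM with and without tunicamycin, against 1441 and 1763 CPM in M-BMDM with and without it, and a fitted value of -0.78 ± 0.13 (edgeR adjusted p = 0.003). Ctsb, a cysteine protease with both endo- and exopeptidase activity, had 7572 and 8058 CPM in GM-BMDM with and without tunicamycin, against 9573 and 11641 CPM in M-BMDM with and without it. Its groups did not overlap either, but its fitted value of -0.43 ± 0.16 did not pass (edgeR adjusted p = 0.062). Ctsa and Ctsz did not pass, at 0.26 ± 0.13 and 0.11 ± 0.13. The protease sum was 31178 and 31979 CPM in GM-BMDM with and without tunicamycin, against 22502 and 27173 CPM in M-BMDM with and without it.

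Among the lipid genes, Gm2a and Lipa moved in opposite directions. Gm2a, whose product lifts the GM2 ganglioside out of membranes for cleavage by hexosaminidase A, had 684 and 826 CPM in GM-BMDM with and without tunicamycin, against 177 and 271 CPM in M-BMDM with and without it (1.78 ± 0.14, edgeR adjusted p = 6.7e-05). Hexa, which codes for the alpha chain of that enzyme, had 735 and 764 CPM in GM-BMDM with and without tunicamycin, against 1090 and 1309 CPM in M-BMDM with and without it (-0.67 ± 0.13, edgeR adjusted p = 0.0051). The activator was thus higher and the enzyme chain lower in GM-BMDM. Lipa, the acid lipase of cholesteryl esters and triglycerides, had 1463 and 1432 CPM in GM-BMDM with and without tunicamycin, against 2443 and 2897 CPM in M-BMDM with and without it (-0.88 ± 0.14, edgeR adjusted p = 0.0024). Ppt1, a thioesterase that removes palmitate from proteins, rose by 0.35, and Grn fell by 0.42 on the log2 scale.

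Of the glycan-degrading enzymes, Arsb, Galns, Manba, Glb1 and Neu1 rose. Galns, a sulfatase of keratan sulfate, had 73.0 and 73.3 CPM in GM-BMDM with and without tunicamycin, against 34.5 CPM in both M-BMDM libraries (1.09 ± 0.12). Manba, the beta-mannosidase, rose by 1.0 ± 0.12. Idua, which removes iduronic acid from heparan and dermatan sulfate, had 26.8 and 29.1 CPM in GM-BMDM with and without tunicamycin, against 50.6 and 47.3 CPM in M-BMDM with and without it (-0.81 ± 0.13, edgeR adjusted p = 0.0019). Naglu, a heparan sulfate hexosaminidase, fell by 0.38 on the log2 scale. The glycan-degrading enzymes thus moved in both directions.

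The membrane proteins differed less. Gpnmb had 12049 and 12045 CPM in GM-BMDM with and without tunicamycin, against 6877 and 7167 CPM in M-BMDM with and without it (0.78 ± 0.16, edgeR adjusted p = 0.0067). Cd63 rose by 0.73 ± 0.12. Lamp1 had 3046 and 3022 CPM in GM-BMDM with and without tunicamycin, against 3075 and 3831 CPM in M-BMDM with and without it, so that the kinds were close with tunicamycin, and it did not pass (-0.18 ± 0.15). Of the transcription factors, Tfe3 fell, with 70.9 and 80.1 CPM in GM-BMDM with and without tunicamycin, against 119 and 116 CPM in M-BMDM with and without it (-0.64 ± 0.12, edgeR adjusted p = 0.0039). Tfeb and Mitf were at -0.13 ± 0.13 and -0.18 ± 0.12 and did not pass. Of the 13 genes with CACGTG in a promoter window 4 rose and 2 fell (median -0.03), and of the 31 whose windows lack it 14 rose and 5 fell (median 0.34).

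**Figure D2:**
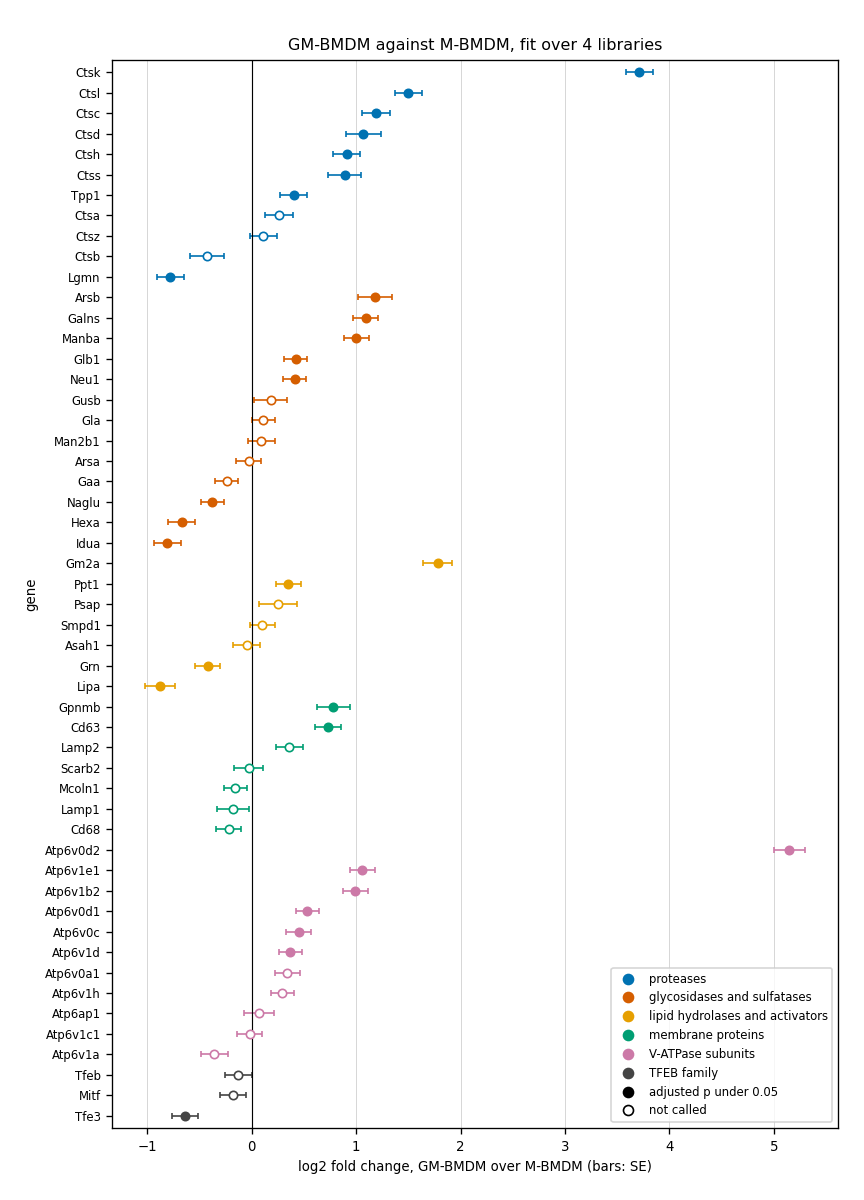
Log2 fold change of each of the 52 genes in GM-BMDM over M-BMDM, from the fit on 4 BMDM libraries with kind and tunicamycin as terms. Points are coloured by class, filled where the adjusted p was under 0.05, and bars are SE. Atp6v0d2 and Ctsk stand apart on the right at 5.15 and 3.71, and Lipa is furthest to the left at -0.88.

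Set against 1 M-BMDM library at a time, 13 of the 52 genes were higher by 2-fold or more and 0 were lower with tunicamycin, where 12.6% of all genes were higher and 7.82% lower. With total counts 8 were higher in that comparison. Without tunicamycin 6 were higher and 1, Lipa, was lower by 2.02-fold (2.0 to 2.04), where 12.4% and 7.02% of all genes were. The 6 were Atp6v0d2, Ctsk, Gm2a, Ctsl, Galns and Ctsc, and all 6 were also among the 13. DESeq2 called 24 of the 52 genes higher and 7 lower in GM-BMDM, where 23% and 18.7% of all genes were called. All 22 genes that rose and 6 of the 7 that fell were among them, and Naglu was not. DESeq2 called 2 proteases lower, where edgeR called 1. The count of 22 genes that rose depended on single libraries. In fits with kind as the only term, treated and untreated libraries stand in for replicates of a kind, and a tunicamycin effect counts as error. The count was then 20 with all 4 libraries. It was 9 without the untreated GM-BMDM library and 11 without the tunicamycin-treated one, when 13.5% and 14.8% of all genes rose. It was 28 and 21 without the untreated and the treated M-BMDM library, when 29.2% and 26% of all genes rose. Ctsc, Ctsk, Ctsl, Galns, Manba, Gm2a, Atp6v0d2, Atp6v1b2 and Atp6v1e1 rose, and Idua fell, in every fit run. The number that fell was 2, 1, 9 and 11 when those libraries were left out in the same order, where 9.57%, 10.2%, 28.2% and 23.8% of all genes fell.

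Other lysosomal genes were set beside them. Of 31 further lysosomal hydrolase and membrane genes tested, 7 rose and 11 fell in GM-BMDM, where 25.4% and 25% of all genes did. Acp5, the tartrate-resistant acid phosphatase of osteoclasts, had 285 and 301 CPM in GM-BMDM with and without tunicamycin, against 5.66 and 7.03 CPM in M-BMDM with and without it (5.54 ± 0.15, edgeR adjusted p = 2.3e-06). Sgsh, a heparan sulfamidase, had 11.7 and 14.0 CPM in GM-BMDM with and without tunicamycin, against 103 and 128 CPM in M-BMDM with and without it (-3.17 ± 0.12). Slc11a1, the metal transporter of phagosomes, fell by 2.40 on the log2 scale. Of 8 further pump genes 3 rose and 1 fell, with Atp6v0e at 0.88 ± 0.13.

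Of 11 genes that sort enzymes to the lysosome 4 rose and 2 fell, led by the sorting receptor Sort1 at 2.12 ± 0.16. Of 17 genes that act on or beside TFEB in nutrient signalling 3 rose and 4 fell, also with 25.4% and 25% of all genes rising and falling. Tfec, the remaining member of the TFEB family and known from macrophages, had 179 and 192 CPM in GM-BMDM with and without tunicamycin, against 31.9 and 44.8 CPM in M-BMDM with and without it (2.29 ± 0.14). The autophagy receptor gene Sqstm1 fell by 1.52 on the log2 scale. Of 3 cystatins tested, which inhibit cathepsins, Cstb rose by 0.55.

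After 4 h of tunicamycin none of the 52 genes passed the test or differed 2-fold in either kind of macrophage. In the fit 0 of 52 genes rose and 0 fell, where 0% of all genes did so in either direction, by edgeR's test. At an unadjusted p under 0.05 the counts were 1 higher and 3 lower among the 52, and 551 and 552 among all genes. DESeq2 called 0 of the 52, with 0.172% of all genes higher and 0.299% lower. Between single libraries, of all genes, 0.0634% were 2-fold higher and 0.443% lower in GM-BMDM, and 1.18% and 0.29% in M-BMDM.

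Small differences leaned downward in M-BMDM. There 41 of the 52 genes lay below the untreated library and 11 above, with a median log2 difference of -0.22, where 49.1% of all genes lay below and 50.8% above. In GM-BMDM 35 lay below and 17 above, with a median of -0.06, where 49.7% of all genes lay below and 50.3% above. With total counts in place of the composition scaling, which moves the median of all genes in M-BMDM by 0.11, the M-BMDM count was 34 below and 18 above (median -0.12), and that of GM-BMDM was 28 below and 24 above. In M-BMDM all 11 proteases lay below (median -0.28), and 9 of 11 did with total counts. All 7 lipid genes lay below in M-BMDM (median -0.25), and 6 of 7 did with total counts. The 14 macrophage markers summed to 33927 CPM in M-BMDM with tunicamycin, against 53911 CPM without, and to 40283 CPM in GM-BMDM with tunicamycin, against 42627 CPM without. Their part in the lean of M-BMDM was not tested.

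Gusb, the beta-glucuronidase, differed most in M-BMDM. It had 285 CPM in M-BMDM with tunicamycin, against 457 CPM without, 1.61-fold lower (1.57 to 1.64), and 393 CPM in GM-BMDM with tunicamycin, against 426 CPM without. Gm2a had 177 CPM in M-BMDM with tunicamycin, against 271 CPM without, 1.53-fold lower (1.49 to 1.58). In GM-BMDM it had 684 CPM with tunicamycin, against 826 CPM without. Both genes were lower with tunicamycin in both kinds, by less in GM-BMDM.

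Mitf and Tfeb leaned the other way. Mitf had 239.9 CPM in M-BMDM with tunicamycin, against 177 CPM without, 1.36-fold higher (1.31 to 1.4), and 199 CPM in GM-BMDM with tunicamycin, against 167 CPM without, 1.19-fold higher (1.16 to 1.23). Tfeb had 60.7 CPM in M-BMDM with tunicamycin, against 47.5 CPM without, 1.28-fold higher (1.2 to 1.36), and 51.1 CPM in GM-BMDM with tunicamycin, against 47.2 CPM without. For both factors the treated libraries lay above both untreated ones. They did not pass the test, with fitted values of 0.35 ± 0.12 (edgeR adjusted p = 0.47) and 0.23 ± 0.13 (edgeR adjusted p = 0.55). Mcoln1, the lysosomal calcium channel through which TFEB can be activated, was the other gene higher in both treated libraries than in both untreated ones, at 64.8 and 74.6 CPM in treated GM-BMDM and M-BMDM, against 57.7 and 62.8 CPM in untreated ones. Gusb, Man2b1, Asah1 and Cd68 were lower in both treated libraries than in both untreated ones, so the counts were 3 and 4 of 52, where 9.1% and 6.63% of all genes were.

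The 2 kinds' responses differed little in size. The GM-BMDM response minus the M-BMDM response had a median of 0.15 on the log2 scale and was above 0 for 40 of the 52 genes, where 49.8% of all genes were above 0 and 50.2% below. For 0.208% and 1.38% of all genes it was past 2-fold upward or downward, and for none of the 52. It ranged from -0.24 to 0.56, was above 0 for all 11 proteases, and was below 0 for the 3 transcription factors. With 1 library per group this difference was not tested. edgeR called no gene of the wider lists for tunicamycin, and DESeq2 called 1 cystatin lower. Of the 14 macrophage markers edgeR called 0 and DESeq2 called 2 lower. Sqstm1 had 2373 CPM in M-BMDM with tunicamycin, against 1102 CPM without, and 588 CPM in GM-BMDM with tunicamycin, against 538 CPM without.

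**Figure D3:**
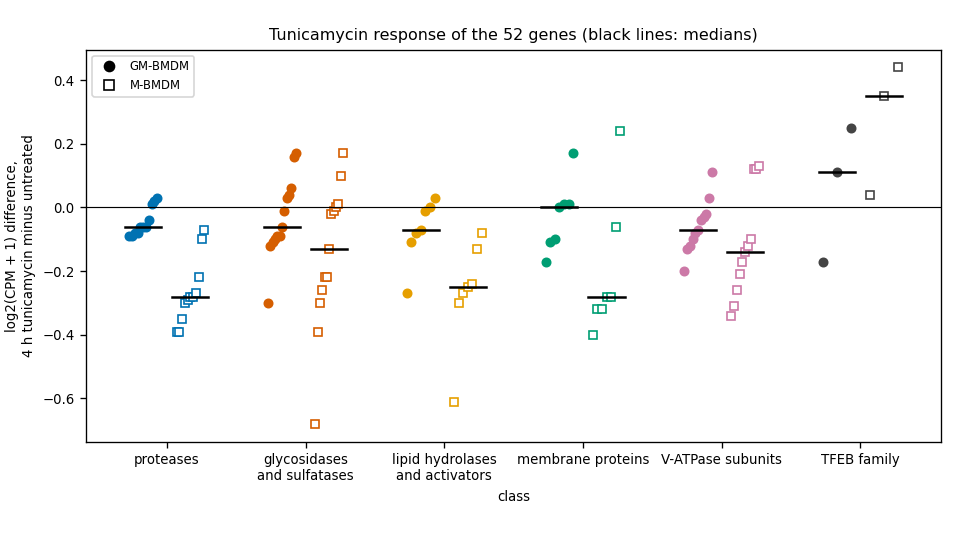
Log2(CPM + 1) difference of 4 h tunicamycin minus untreated for each of the 52 genes, by class, in GM-BMDM (filled circles) and M-BMDM (open squares), with black lines at class medians. The protease squares all lie below 0 with a median of -0.28, and the M-BMDM squares of the transcription factors lie between 0.04 and 0.44.

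The LLC libraries from macrophage-conditioned medium held less mRNA of most lysosomal genes than the untreated LLC library, in all classes. The fit gave 35 of the 45 genes tested as lower and 1, Gusb, as higher in medium, where 21.9% of all 11190 genes tested fell and 24.9% rose. The median log2 fold change was -0.37, beside 0.02 over all genes. By class, 6 of 7 proteases fell, 8 of 12 glycosidases and sulfatases, 5 of 6 lipid genes, 6 of 7 membrane proteins, 8 of 10 pump subunits and 2 of 3 transcription factors. In CPM, 37 of the 45 were lower in all 4 media than in untreated cells, where 32.2% of all genes were, and 2, Gusb and Galns, were higher in all 4, where 36.4% of all genes were. These counts rest on 1 untreated library, which every medium was set against, so medium and that library cannot be told apart, and p-values of single genes are not given for this comparison.

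Neu1 (chr17:34931253-34935953, plus strand), the sialidase that starts the breakdown of sialylated glycans, was furthest down in the fit. It had 28.7 and 21.2 CPM with stressed and unstressed GM medium, 37.2 and 32.4 CPM with stressed and unstressed M medium, and 72.2 CPM in untreated cells. Every medium library was below the untreated one, by 2.52-fold (2.26 to 2.82) and 3.4-fold (3.0 to 3.86) with stressed and unstressed GM medium and by 1.94-fold (1.76 to 2.14) and 2.23-fold (2.0 to 2.48) with stressed and unstressed M medium. The fitted value was -1.30 ± 0.09. Hexa (chr9:59539540-59565109, plus strand) had 48.7 and 53.0 CPM with stressed and unstressed GM medium, 62.9 and 57.4 CPM with stressed and unstressed M medium, and 108 CPM in untreated cells (-0.96 ± 0.07). Both enzymes act on gangliosides, and neither had a medium library near the untreated level. Manba, Gaa (acid alpha-glucosidase, which degrades glycogen) and Glb1 (beta-galactosidase) fell by 0.55, 0.48 and 0.47 on the log2 scale.

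Gusb was the exception among the glycosidases. It had 82.1 and 81.5 CPM with stressed and unstressed GM medium, 77.2 and 77.6 CPM with stressed and unstressed M medium, and 65.5 CPM in untreated cells. The 4 media libraries lay close to each other and above the untreated one, with a fitted value of 0.28 ± 0.08. DESeq2 did not call it. Galns, Naglu and Idua did not pass in either direction.

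The pump's a1 subunit, Atp6v0a1 (chr11:101009452-101063719, plus strand), had 37.7 and 34.8 CPM with stressed and unstressed GM medium, 42.2 and 49.2 CPM with stressed and unstressed M medium, and 85.5 CPM in untreated cells. It was lower by 2.27-fold (2.06 to 2.5) and 2.46-fold (2.22 to 2.73) with stressed and unstressed GM medium and by 2.03-fold (1.85 to 2.22) and 1.74-fold (1.59 to 1.9) with stressed and unstressed M medium (fitted -1.07 ± 0.08). Atp6v0d1 had 42.7 and 43.3 CPM with stressed and unstressed GM medium, 53.4 and 57.1 CPM with stressed and unstressed M medium, and 70.1 CPM in untreated cells (-0.53 ± 0.08). Atp6v1d had 101 and 90.4 CPM with stressed and unstressed GM medium, 118 and 127 CPM with stressed and unstressed M medium, and 155 CPM in untreated cells (-0.52 ± 0.07). In these 3 genes the GM media stood lowest, the M media between and the untreated cells highest. Atp6v0c, the proteolipid of the rotor, and Atp6v1c1 did not pass, at -0.13 ± 0.07 and -0.11 ± 0.07. The pump sum was 1004 and 879 CPM with stressed and unstressed GM medium, 1120 and 1094 CPM with stressed and unstressed M medium, and 1292 CPM in untreated cells.

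Lamp1 (chr8:13159161-13175338, plus strand) had 483 and 554 CPM with stressed and unstressed GM medium, 592 and 701 CPM with stressed and unstressed M medium, and 950.2 CPM in untreated cells (-0.72 ± 0.06). Lamp2, Gpnmb, Mcoln1 and Scarb2, the last the receptor that carries beta-glucocerebrosidase to the lysosome, fell by 0.38, 0.46, 0.33 and 0.27. Cd63 did not pass (0.04 ± 0.06). Cd68, which also marks macrophages, was at only 18 and 8 counts with stressed and unstressed GM medium, 28 and 26 counts with stressed and unstressed M medium, and 42 counts in untreated cells. Its fitted value of -1.24 ± 0.40 therefore comes from few reads.

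Among the proteases Ctsd was furthest down, with 87.0 and 85.1 CPM with stressed and unstressed GM medium, 94.6 and 112 CPM with stressed and unstressed M medium, and 144 CPM in untreated cells (-0.61 ± 0.07). Lgmn had 116 and 136 CPM with stressed and unstressed GM medium, 117 and 142 CPM with stressed and unstressed M medium, and 178 CPM in untreated cells (-0.49 ± 0.07). Ctsl, the protease with the highest FPKM in untreated LLC cells, differed less, with 783 and 702 CPM with stressed and unstressed GM medium, 749.8 and 735 CPM with stressed and unstressed M medium, and 834 CPM in untreated cells (-0.17 ± 0.06). The acid sphingomyelinase gene Smpd1, Lipa, Grn, Psap and the acid ceramidase gene Asah1 fell by 0.63, 0.46, 0.38, 0.37 and 0.37. Ppt1 and Ctsz did not pass, at -0.10 ± 0.07 and -0.13 ± 0.07.

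Tfe3 had 47.0 and 44.2 CPM with stressed and unstressed GM medium, 46.1 and 43.6 CPM with stressed and unstressed M medium, and 62.9 CPM in untreated cells (-0.48 ± 0.09). Tfeb had 10.6 and 11.4 CPM with stressed and unstressed GM medium, 7.33 and 10.8 CPM with stressed and unstressed M medium, and 13.7 CPM in untreated cells (-0.46 ± 0.17). For both, all 4 media were below the untreated library. Mitf was at 4.85 and 8.77 CPM with stressed and unstressed GM medium, 6.51 and 6.64 CPM with stressed and unstressed M medium, and 7.84 CPM in untreated cells, and did not pass (-0.24 ± 0.22). Of the 13 genes with CACGTG in a promoter window 12 fell (median -0.47), and of the 26 tested genes whose windows lack it 19 fell and 1 rose (median -0.38).

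**Figure D4:**
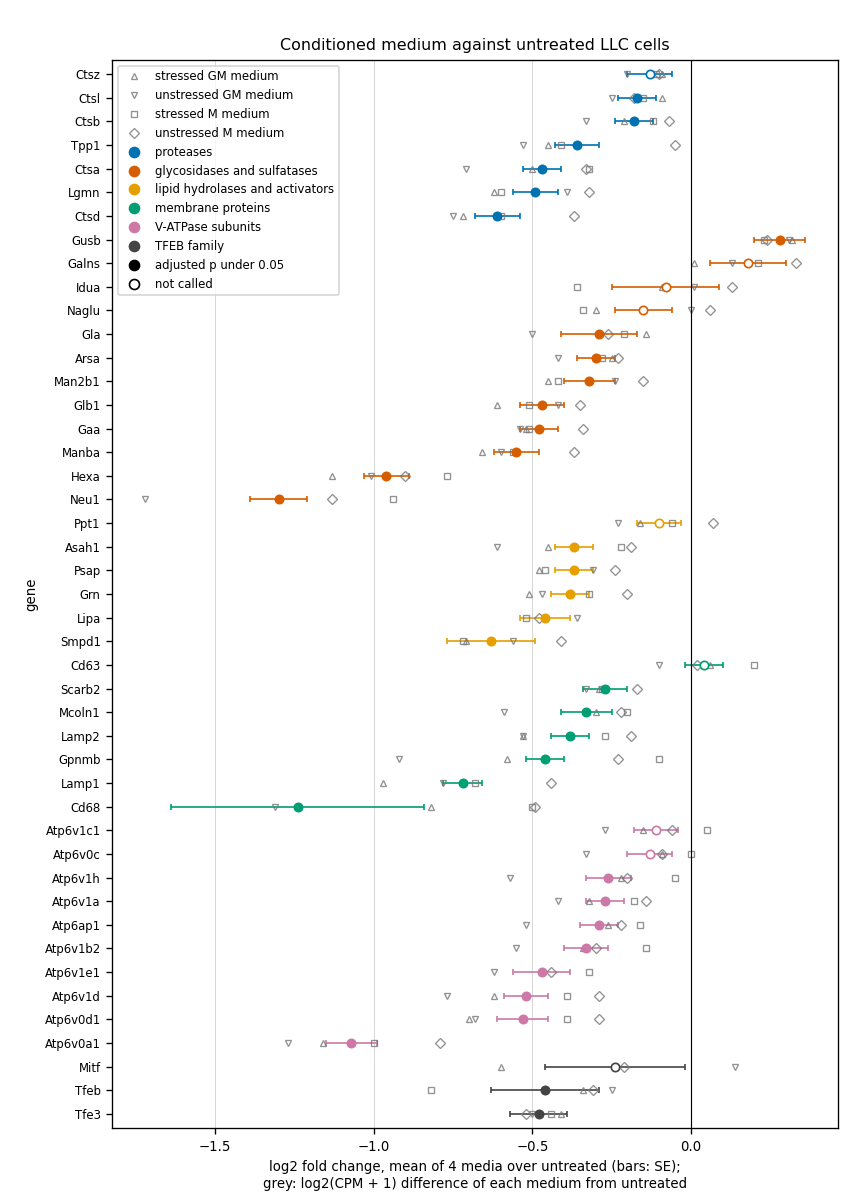
Log2 fold change of each of the 45 genes tested in LLC for the mean of the 4 media over untreated cells (coloured by class, filled where the adjusted p was under 0.05, bars SE), with the log2(CPM + 1) difference of each medium library from the untreated one in grey. Most points lie left of 0, with Neu1 at -1.30, Cd68 at -1.24 and Atp6v0a1 at -1.07 furthest, and Gusb is to the right at 0.28.

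Per medium, the median log2 difference from untreated cells was -0.45 and -0.50 with stressed and unstressed GM medium and -0.32 and -0.23 with stressed and unstressed M medium. With these media 42, 41, 41 and 39 of the 45 genes lay below untreated cells, where 48.2%, 46.9%, 48.3% and 47.4% of all genes lay below and 51.8%, 53.1%, 51.7% and 52.6% above. At least 2-fold lower were 3, 4, 1 and 1 of the 45, where 2.4%, 1.93%, 2.14% and 1.4% of all genes were, and none was 2-fold higher, where 1.48%, 1.04%, 1.22% and 0.5% of all genes were. The 4 comparisons share the untreated library. The count of 35 genes depends on the model. DESeq2 called 24 lower and 0 higher, where 8.8% and 9.02% of all genes were called. With medium as the only term 13 fell and 0 rose, where 6.89% and 7.56% of all genes did. Leaving out 1 medium library from that model gave 7 and 4 that fell without stressed and unstressed GM medium, where 4.08% and 3.96% of all genes fell, and 4 and 18 without stressed and unstressed M medium, where 3.64% and 7.96% did. Neu1, Hexa and Atp6v0a1 fell in each of these fits.

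Of 28 further lysosomal genes tested 15 fell and 2 rose in medium, where 21.9% of all genes fell and 24.9% rose. The cystine exporter gene Ctns had 32.7 and 31.6 CPM with stressed and unstressed GM medium, 36.3 and 43.7 CPM with stressed and unstressed M medium, and 63.3 CPM in untreated cells (-0.82 ± 0.09). The cholesterol transporter gene Npc1 fell by 0.69, and Tmem175, which codes for a lysosomal ion channel, rose by 1.18 ± 0.18, with 15.2 and 19.1 CPM with stressed and unstressed GM medium, 15.3 and 14.6 CPM with stressed and unstressed M medium, and 7.05 CPM in untreated cells. Of 9 further pump genes 3 fell and of 11 sorting genes 4 fell, with the same 21.9% of all genes falling. The pump genes were led by Atp6v0b at -0.64 ± 0.10. The sorting genes were led by Sort1 at -0.65 ± 0.17 and the mannose 6-phosphate receptor Igf2r at -0.56 ± 0.06.

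Of 16 genes around TFEB 5 fell and 3 rose in medium, where 21.9% of all genes fell and 24.9% rose. Rragd, a TFEB target that codes for a Rag GTPase, had 5.16 and 2.47 CPM with stressed and unstressed GM medium, 7.98 and 3.87 CPM with stressed and unstressed M medium, and 8.89 CPM in untreated cells (-1.0 ± 0.23). Flcn, the folliculin gene, fell by 0.54, and Rraga rose by 0.53. Of the 3 cystatins Cst3 fell by 0.40. The macrophage marker sum was 20.3 and 15 CPM with stressed and unstressed GM medium, 19.0 and 17.4 CPM with stressed and unstressed M medium, and 23.3 CPM in untreated cells. Neutrophil markers summed to 33.5 and 7.73 CPM with stressed and unstressed GM medium. They summed to 14.1 and 5.74 CPM with stressed and unstressed M medium, and to 7.38 CPM in untreated cells. Only 2 of the 13 neutrophil markers passed the minimum level in LLC. With stressed medium 1 of these 2 rose, at 3.42 on the log2 scale, where 12.5% of all genes rose. The other was at -0.00. Mesenchymal markers summed to 3097 and 4657 CPM with stressed and unstressed GM medium, 3165 and 4189 CPM with stressed and unstressed M medium, and 3968 CPM in untreated cells. Epithelial markers summed to 454 and 526 CPM with stressed and unstressed GM medium, 459.7 and 525 CPM with stressed and unstressed M medium, and 364 CPM in untreated cells. With stressed medium 4 of 6 mesenchymal and 2 of 2 epithelial markers tested fell, where 10.9% of all genes fell. The part of these shifts in the lysosomal differences was not tested.

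LLC cells in GM medium held less mRNA of many lysosomal genes, most pump subunits among them, than LLC cells in M medium. In the fit 21 of the 45 genes fell and 0 rose with GM medium, where 2.32% of all genes fell and 2.21% rose. In CPM, 27 were lower in both GM media than in either M medium, where 13.5% of all genes were, and 2, Gusb and Lipa, were higher in both, where 13.6% were. Those that fell were 8 of 10 pump subunits, 4 of 7 membrane proteins, 4 of 7 proteases, 3 of 6 lipid genes, 2 of 12 glycosidases and sulfatases and 0 of 3 transcription factors. The differences were small, and none of the 45 reached 2-fold between stressed media, where 0.206% of all genes were 2-fold higher and 0.0536% lower, or between unstressed media, where 0.125% and 0.0626% were.

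Gpnmb differed most among those that passed, with 524 and 413 CPM with stressed and unstressed GM medium, against 732 and 669 CPM with stressed and unstressed M medium (-0.59 ± 0.05, edgeR adjusted p = 2.7e-24). Neu1 fell by 0.48 ± 0.10 (edgeR adjusted p = 7e-05). Lamp1 and Lamp2 fell by 0.32 and 0.31, each with both GM media below both M media. Asah1 had 185 and 164 CPM with stressed and unstressed GM medium, against 216 and 221 CPM with stressed and unstressed M medium (-0.33 ± 0.06, edgeR adjusted p = 3.2e-06). Atp6v1d and Atp6v0d1 both fell by 0.36 (edgeR adjusted p = 2.4e-06 and 0.00045), and Atp6v0a1 fell by 0.33 ± 0.08. Of the 45 genes 34 were lower with GM than with M medium between stressed media and 40 between unstressed media, where 51.5% and 47.9% of all genes were. All 10 pump subunits were lower between stressed media (median -0.16) and between unstressed media (median -0.29), and they were so with each of the 3 scalings tried. Ctsa, the protective protein of Neu1 and Glb1, fell by 0.28, and Tpp1, Ctsd and Ctsb by 0.26, 0.26 and 0.17. The transcription factors Tfeb, Tfe3 and Mitf did not pass, at 0.29 ± 0.16, 0.02 ± 0.08 and 0.02 ± 0.20.

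Further pump genes behaved alike, with 4 of 9 lower (Atp6v0b at -0.41 and the accessory subunit Atp6ap2 at -0.39 among them) and 0 higher. Of 28 further lysosomal genes 6 fell and 0 rose, and of 16 genes around TFEB 5 fell and 0 rose. Flcn and Fnip1, which form 1 complex, were both at -0.35. In this fit 2.32% of all genes fell and 2.21% rose. DESeq2 called 5 of the 45 lower (Asah1, Grn, Lamp1, Lamp2 and Gpnmb) and 0 higher, where 0.206% and 0.116% of all genes were called. None of its 5 was a pump subunit.

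**Figure D5:**
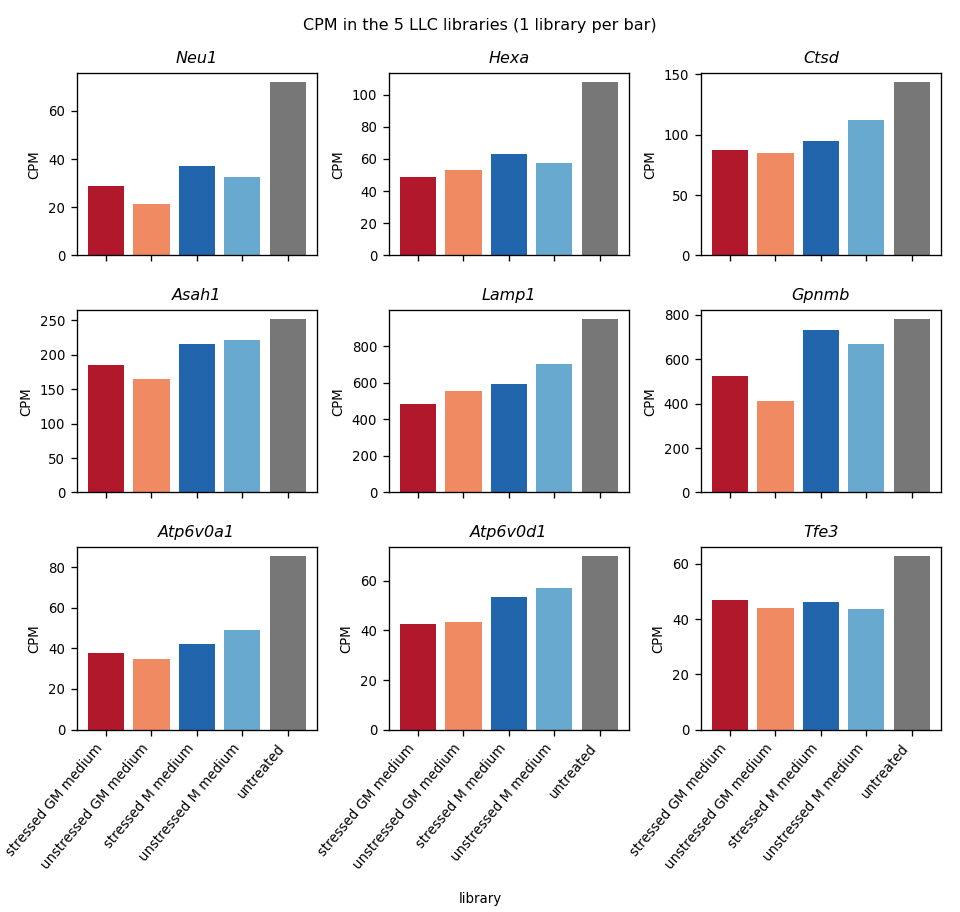
CPM of 9 of the genes in the 5 LLC libraries, 1 library per bar, with stressed and unstressed GM medium in red shades, stressed and unstressed M medium in blue shades and untreated cells in grey. The grey bar is the highest in all 9 panels, and in every panel but that of Tfe3 both red bars are shorter than both blue ones.

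Between stressed and unstressed medium, the LLC fit gave shares of lysosomal genes that rose and fell near those of all genes. In the fit 7 of the 45 rose and 6 fell with stressed medium, where 12.5% of all genes rose and 10.9% fell. The 7 were the pump genes Atp6v0c, Atp6v1b2, Atp6v1h and Atp6ap1, with Gpnmb, Cd63 and Neu1, at 0.16 to 0.31. The 6 were Lgmn, Glb1, Man2b1, Naglu, Psap and Lamp1, at -0.18 to -0.36. By class, 4 of 10 pump subunits rose and 0 fell, and 2 of 7 membrane proteins rose and 1 fell. Of 12 glycosidases and sulfatases 1 rose and 3 fell. Among 7 proteases 0 rose and 1 fell, as among 6 lipid genes, and 0 of 3 transcription factors did either. In CPM, 5 were higher in both stressed than in both unstressed media and 9 were lower, where 27.7% and 27.8% of all genes were.

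Gpnmb rose by 0.24 ± 0.05 (edgeR adjusted p = 0.00017), with a wider gap between the GM media than between the M media. Atp6v1h, a regulatory subunit of the pump's cytosolic sector, had 88.7 CPM with stressed GM medium, against 69.1 CPM with unstressed GM medium, and 99.5 CPM with stressed M medium, against 90.0 CPM with unstressed M medium (0.25 ± 0.07, edgeR adjusted p = 0.0014). It was higher with the stressed medium of each kind. Naglu had 42.0 CPM with stressed GM medium, against 52 CPM with unstressed GM medium, and 40.9 CPM with stressed M medium, against 54.2 CPM with unstressed M medium (-0.36 ± 0.08, edgeR adjusted p = 0.00018). Lamp1 fell by 0.22 ± 0.05 (edgeR adjusted p = 0.00046) and Psap by 0.20 ± 0.05 (edgeR adjusted p = 0.0018). Tfeb, Tfe3 and Mitf did not pass, at -0.32 ± 0.16, 0.08 ± 0.08 and -0.44 ± 0.20.

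Within a kind, no gene of the 45 differed 2-fold, where 0.393% of all genes were 2-fold higher and 0.125% lower with stressed GM medium, and 0.411% and 0.143% with stressed M medium. With stressed GM medium 28 of the 45 lay above unstressed GM medium and 17 below, where 50.8% of all genes lay below. With stressed M medium 15 lay above unstressed M medium and 30 below, where 50.3% of all genes lay below, and whether the kinds differ in this was not tested. Of 16 genes around TFEB 4 rose and 0 fell, where 12.5% of all genes rose and 10.9% fell in the fit. Among the 4 were Rragd at 1.05 ± 0.23 (edgeR adjusted p = 0.00011) and Sqstm1 at 0.34. Of 28 further lysosomal genes 3 rose and 5 fell, beside the same shares of all genes. The serine carboxypeptidase gene Scpep1 was at 0.39 and the acid nuclease gene Dnase2a at -0.44. Of 11 sorting genes 3 rose and 1, Igf2r, fell by 0.32. DESeq2 called Gpnmb higher and Psap and Lamp1 lower among the 45, where 2.8% and 1.51% of all genes were called.

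Reads of 15 of the 52 genes may be shared with another annotated gene, since exons overlap in GENCODE M21 and the strand setting of the counting is not given in the sources used here. Among those named above, Ctsl overlaps the antisense gene Gm47123 and the pseudogene Gm49230, Ctsd overlaps Gm49369 on the same strand, and Glb1 overlaps Tmppe on the same strand. On the opposite strand Hexa overlaps Tmem202, Lamp1 overlaps Grtp1, Ctsb overlaps Fdft1 and Idua overlaps Dgkq and Slc26a1. Arsb overlaps Gm47210 and, over a stretch of 1719 bases, Gm26527, both on the opposite strand. Ctsa, Ctsz, Arsa, Ppt1, Grn, Atp6v1e1 and Atp6v1h also overlap other genes on the opposite strand. For these genes the counts cannot be assigned to 1 gene with certainty.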

How the data were processed

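Total RNA from 4 BMDM and 5 LLC libraries was sequenced, 1 library per group. The deposited tables hold whole-number read counts per gene and FPKM, and the authors' FPKM were recomputed from the deposited counts and lengths within 4.9e-06. Read counts sum to 37695079 to 42751176 in BMDM and 15020068 to 17128471 in LLC. Per the submitters' processing notes, the tools were cutadapt 1.15, HISAT2 and TopHat2 2.1.0. Which tool counted the reads, with which strand setting and on which genome build, is not given in the sources used here. The deposited tables also hold gene coordinates and lengths; coordinates equal those of GENCODE M21 for 99.0% of shared identifiers.

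From the deposited counts of each table, CPM with TMM scaling were calculated (edgeR 4.0.16, R 4.3.3). Genes with a mean of at least 1 CPM were tested (11049 in BMDM, 11190 in LLC). Differences of 2 libraries are on the log2(CPM + 1) scale, computed from the deposited counts. Folds are CPM ratios, with exact 95% Clopper-Pearson intervals for counting error only. edgeR's quasi-likelihood test used kind and tunicamycin as terms in BMDM, and medium, kind of medium and stressed medium in LLC. SE were taken from the F statistic. The coefficient of variation about the fits, which have no replicates, was 11.5% in BMDM and 4.28% in LLC. The procedure was tested on simulated counts, drawn with additive effects and a common spread for all genes. That run cannot show how the test fares where responses differ between kinds or where cultures vary.

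The 52 genes, the wider lists and the marker lists were chosen with earlier results of these data known. All 52 genes are accounted for. From each wider list at most 3 genes per comparison are named, those with the largest absolute difference among those called. Sqstm1 is an exception, since it is named for tunicamycin without having been called there. Alternatives were DESeq2 1.42.0 (size factors and Wald test), total counts, no filter, a pseudocount of 0.25, and fits with 1 term with all libraries or leaving each out. Levels are not compared between the tables beyond printing them side by side, since each was scaled on its own.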

Additional observations from a re-analysis of the deposited data

Results flagged for a closer look

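For 3 pump subunits the macrophage kinds or media differed in opposite directions, each past its counting interval and by at least 0.1 on the log2 scale. With 1 library per group none of these differences was tested. With tunicamycin, Atp6v0a1 differed by -0.10 in GM-BMDM and by 0.12 in M-BMDM. Atp6ap1, an accessory subunit of the pump, differed by 0.11 in GM-BMDM and by -0.26 in M-BMDM. With stressed over unstressed medium, Atp6v1d differed by 0.16 with GM medium and by -0.10 with M medium in LLC. Without the minimum of 0.1, the responses of 6 genes to tunicamycin and of 2 genes to stressed medium had opposite signs past both counting intervals.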

How the results depend on the processing

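No value past its threshold changed sign under any alternative run, but small differences did. With total counts 18 of the 52 genes lay above and 34 below untreated M-BMDM with tunicamycin (11 and 41 with TMM), and 3 of 7 lipid genes lay above and 4 below treated M-BMDM in treated GM-BMDM (5 and 2 with TMM). DESeq2's Wald test gave 5 genes that fell with GM against M medium (21 with edgeR). For medium against untreated LLC cells it gave 0 that rose (1 with edgeR). For stressed against unstressed medium it gave 1 that rose and 2 that fell (7 and 6 with edgeR). With DESeq2's size factors 0 genes were 2-fold lower in untreated GM-BMDM than in untreated M-BMDM (1 with TMM). With total counts 8 were 2-fold higher in tunicamycin-treated GM-BMDM than in treated M-BMDM (13 with TMM). With a pseudocount of 0.25, 1 gene was 2-fold lower with unstressed GM than with unstressed M medium (0 with a pseudocount of 1). Fits with 1 term, where libraries of different treatment or medium stand in for replicates, were chosen after seeing the data. They gave 0 genes that rose and 13 that fell in medium. Leaving out each medium library gave 4 to 18 that fell and 0 to 0 that rose. Leaving out each BMDM library gave 9 to 28 that rose and 1 to 11 that fell in GM-BMDM. The cause of these shifts was not tested, apart from the smaller number of libraries. The untreated LLC library could not be left out of the medium comparison, and leaving it out of the other LLC comparisons changed no call. Total counts moved the median of all genes by 0.11 for tunicamycin in M-BMDM and by -0.10 for treated GM-BMDM against treated M-BMDM. No paired analysis was possible because each group has 1 library and the groups share only the number 1. Depth limits Cd68, Mitf and Tfeb in LLC, which rest on the fewest reads among the 45 genes tested.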
